A study of Mus musculus with 24 samples.

Results

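The genes described here are those of the collagens, the laminins and their usual partners in basement membranes, in retinas of mice exposed to a blast wave. They were taken by symbol: every Col gene of the pattern Col, number, a, number, every Lama, Lamb and Lamc gene, and Nid1, Nid2, Hspg2 and Agrn. The genome annotation holds 59 such genes, and 53 of them stood in the expression tables among 16387 genes in all. Of these, 44 stood in the table of 14922 genes for 1 week after injury, 52 in the table of 15920 genes for 5 weeks, and 43 in both. The tables held no values for Col6a3, Col6a5, Col10a1, Col14a1 or Col28a1. Col3a1, the chain of collagen III, stood only in the 1 week table. The 9 genes that stood only in the 5 week table were Col5a2, Col6a4, Col6a6, Col7a1, Col11a2, Col13a1, Col16a1, Col24a1 and Lamb3.

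The RNA came from 24 retinas of 24 adult male C57BL/6J mice in 4 groups of 6. The bTBI mice, labelled TBI, were anesthetized and exposed to a single blast overpressure wave in an enclosed chamber with the left side of the head toward it, and the retina of that side was taken. The sham mice, labelled Control, were handled alike without the wave. A bTBI and a sham group were taken at 1 week, given as 8 days in the labels, and another bTBI and sham group at 5 weeks. No transgene or allele distinguished the groups, so the blast and the time after it are what the labels set apart. The RNeasy Plus Mini Kit was used at 1 week and the RNeasy Mini Kit at 5 weeks, so that kit and time cannot be told apart in any direct comparison of the timepoints.

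A basement membrane is a thin sheet of matrix on which epithelia, vessels and glial endfeet rest. Laminin trimers of an alpha, a beta and a gamma chain form a polymer at the cell surface, collagen IV trimers form a second network, and nidogen, perlecan (the product of Hspg2) and agrin tie or anchor the networks. In the eye such sheets include the inner limiting membrane of the retina, Bruch's membrane, the walls of the retinal vessels and the lens capsule. Fibrillar collagens, collagen VI and the FACIT collagens, which decorate fibrils, belong mainly to stroma and to the vitreous, while sclera and meninges are rich in collagens I, III and VI.

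The values below are CPM, reads scaled by the authors to a common library size, and fold changes are on the log2 scale of CPM + 1, bTBI against sham. That scale understates the change of genes near or below 1 CPM. A gene was called at an adjusted p under 0.005, the limit the study used, and an adjusted p under 0.05 is given as a second limit. Adjusted p-values are from limma unless an exact permutation test is named. Those from limma are by the Benjamini-Hochberg method over every gene tabled at that timepoint, or over the genes in both tables for the difference between timepoints. Exact permutation p-values were adjusted over the marker sums or the chain ratios tested.

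The sequence just upstream of the start site is shown for 5 of the genes: Col15a1 and Col5a1, which had the smallest adjusted p-values at 1 week, Col25a1, which had the smallest among genes with a lower mean in bTBI, Col4a6, the collagen IV chain with the largest fold change, and Col3a1, which had a value far from the others in bTBI retina 3. Each is the window of 120 bases before the RefSeq start (GRCm38.p6), read 5′ to 3′ on the strand of the gene, and none overlaps an annotated exon. For Col25a1 this start, next to that of its coding transcripts, lies inside the span given for the gene below, because the GENCODE annotation adds a noncoding transcript that begins upstream. The Col15a1 window is chr4:47207892-47208011 on the plus strand, that of Col5a1 chr2:27886305-27886424 on the plus strand, and that of Col25a1 chr3:130180725-130180844 on the plus strand. The Col4a6 window is chrX:141474077-141474196 on the minus strand, and that of Col3a1 is chr1:45311418-45311537 on the plus strand. Capitals mark the letters CCAAT (as in a CCAAT box), TATAAA (as in a TATA box) or GGGCGG (as in a GC box) on either strand, wherever they lie in the window. The TATAAA of Col3a1 begins at position -117 from the start, and whether it acts as a TATA box was not tested.
Col15a1: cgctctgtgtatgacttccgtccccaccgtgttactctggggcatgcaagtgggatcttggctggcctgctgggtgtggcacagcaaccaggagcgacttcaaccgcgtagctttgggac
Col5a1: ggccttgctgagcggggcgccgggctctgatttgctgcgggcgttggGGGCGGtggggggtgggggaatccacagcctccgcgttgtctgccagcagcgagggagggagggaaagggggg
Col25a1: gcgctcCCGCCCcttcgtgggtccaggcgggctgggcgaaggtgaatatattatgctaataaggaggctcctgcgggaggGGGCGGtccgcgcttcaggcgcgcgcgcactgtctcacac
Col4a6: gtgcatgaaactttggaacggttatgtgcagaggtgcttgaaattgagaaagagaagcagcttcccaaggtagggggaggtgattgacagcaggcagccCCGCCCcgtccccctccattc
Col3a1: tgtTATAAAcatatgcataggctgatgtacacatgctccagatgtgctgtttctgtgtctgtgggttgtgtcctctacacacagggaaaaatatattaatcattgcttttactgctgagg

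Among the 43 genes of the group with a RefSeq promoter entry, GGGCGG stood in 23 windows (53.5%), CCAAT in 6 (14%) and TATAAA in 3 (6.98%). The shares over all 32851 promoter windows of the same length were 26.5%, 21.3% and 6.34%. Those letters are a description of the windows and were not tested. Col4a5 and Col4a6 lie head to head on chromosome X and point away from each other, as Col4a1 and Col4a2 do on chromosome 8, where the exons of the pair share 22 bases. Exonic bases shared with another annotated gene were found in 17 of the 53 genes and never exceeded 10% of a gene's exons, with 8.45% in Nid2 as the largest share.

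Depth ran from 14301989 to 25158638 reads a retina. The labels name the cell type as retinal ganglion cell, but the study's methods describe whole retina, and the summed CPM of 8 Müller glia genes, 6813 to 7898 at 1 week and 4306 to 4828 at 5 weeks, exceeded that of 8 ganglion cell genes, at most 1315, in every retina. At 1 week 3 bTBI retinas stood apart in markers of other tissue. The sum of the 12 lens genes measured, of 15 listed, was 4238 CPM in bTBI 5 and 8022 CPM in bTBI 6, against 11.5 to 767 CPM in the sham retinas and 46.3 to 463 CPM in the other bTBI retinas, with Mip and Gja3 among those not in the table. The lens capsule is itself a thick basement membrane. Mbp, a myelin gene of oligodendrocytes, was at 2531 CPM in bTBI 3 and 139 CPM in bTBI 4, against 35.7 to 42.0 CPM in the other 10 retinas. The 7 fibroblast genes measured of 11 listed summed to 98.3 to 202 CPM in sham and 124 to 256 CPM in bTBI retinas, highest in bTBI 6 (256 CPM), 5 (246 CPM) and 3 (232 CPM). None of the 5 cornea genes listed stood in the tables. Fold changes at 1 week are therefore given also without bTBI 5 and 6 and, for the genes described most closely, without bTBI 3, 5 and 6, and the plot of fold changes with and without these retinas holds both for all 44 genes. At 5 weeks the lens sum was 3.46 to 119 CPM in all 12 retinas. Pigment epithelium genes, 8 measured of 9 listed, summed to 4339 to 7947 CPM in sham retinas at 1 week, highest in sham 1. Their sum was 4479 to 6664 CPM in bTBI retinas at 1 week and 2991 to 3501 CPM in sham retinas at 5 weeks. In whole retina a change in the number of cells of a type and a change of RNA per cell cannot be told apart.

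In sham retinas the group ran over a wide range of levels. Per kilobase of exon at 1 week, the collagen VIII chain Col8a2, a network collagen of Descemet's and other specialised membranes, was highest at 61.0 ± 12.4 CPM per kb (SD, n = 6). Col8a1 (19.6 CPM per kb), the transmembrane collagen Col23a1 (17.1 CPM per kb), the FACIT chain Col9a3 (16.7 CPM per kb) and Col18a1 (12.7 CPM per kb), whose C-terminal fragment is endostatin, came next. The ranges of Col8a2 and Col8a1 did not overlap, but 40 of the 43 pairs of neighbours in the order did. Col8a2 (364 CPM) and Col8a1 (216 CPM) were highest in sham 1, the retina with the highest pigment epithelium sum. The part of that sum in their values was not tested. Among the collagen IV, laminin, nidogen, perlecan and agrin genes the highest at 1 week were Col4a3 (4.59 CPM per kb), Lamb2 (4.56 CPM per kb) and Agrn (4.49 CPM per kb), 3 levels whose ranges overlapped in that order. At 5 weeks Col8a2 (32.3 CPM per kb) and Col6a1 (31.8 CPM per kb) led the order, followed by Col9a3 (29.1), Agrn (21.4) and Col23a1 (19.3 CPM per kb), and 44 of 51 pairs of neighbours overlapped.

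At 1 week none of the 44 genes passed the limit of 0.005, while 336 of all 14922 genes did (2.25%). At the limit of 0.05, 2 of the 44 passed, Col15a1 and Col5a1, both with a higher mean in bTBI, against 6.08% of all genes. The log2 fold change was above 0 in 33 of the 44 genes (75%) with a median of 0.28, against 49.9% and a median of -0.000235 over all genes. An unadjusted p under 0.05 was found in 13 of the 44, 12 higher and 1 lower in bTBI, and in 17.3% of all genes. No gene of the group had all 6 bTBI values above, or all 6 below, the 6 sham values, which 1.59% and 2.25% of all genes had. The median standard error of the 44 log2 fold changes was 0.163, and the 95% interval lay within -0.5 and 0.5 for 15 of them and within -1 and 1 for 30.

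**Figure D1:**
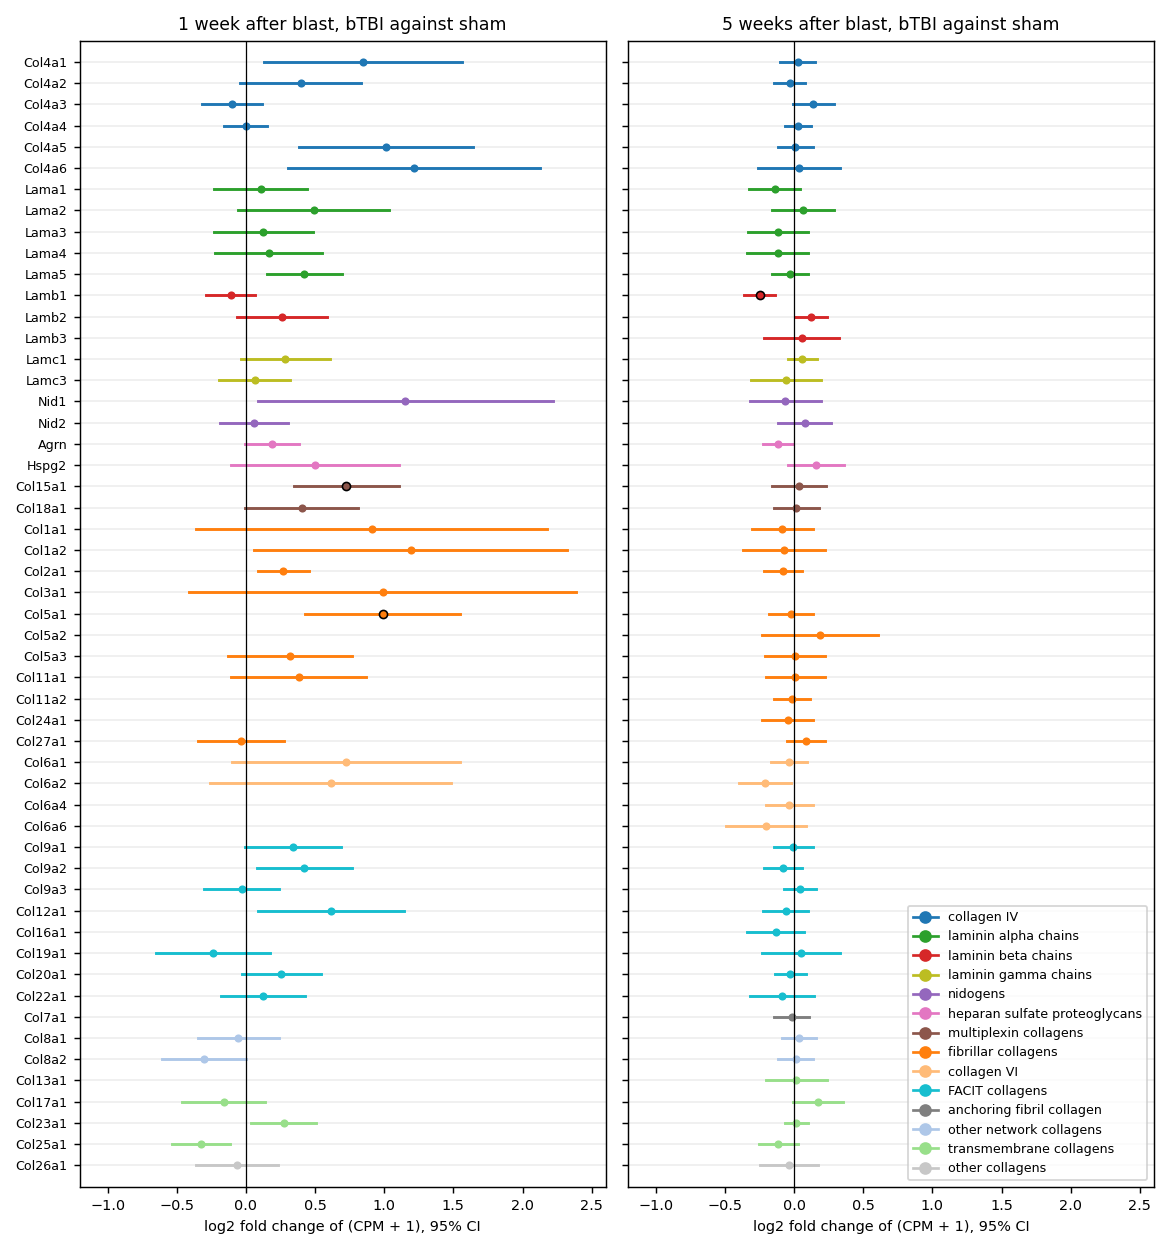
Log2 fold change of CPM + 1 (x axis, bTBI against sham, points with 95% confidence intervals as lines) for each of the 53 genes (y axis), coloured by class, at 1 week (left, 44 genes) and 5 weeks (right, 52 genes); black rims mark an adjusted p under 0.05. The intervals at 1 week were wide (median SE 0.163) and those at 5 weeks narrow (median SE 0.0798), and the rimmed points are Col15a1 and Col5a1 at 1 week and Lamb1 at 5 weeks.

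Col15a1 (ENSMUSG00000028339.17, chr4:47208161-47313167, plus strand, GRCm38) encodes a multiplexin collagen that bridges basement membrane and the fibrils beneath it. Its values in the sham retinas at 1 week had a lowest of 0.489, a median of 0.591 and a highest of 1.08 CPM, and in the bTBI retinas a lowest of 0.655, a median of 1.96 and a highest of 2.71 CPM. The values of 5 of the 6 bTBI retinas lay above every sham value, and bTBI 1 lay among the sham retinas. The log2 fold change was 0.73 ± 0.18 (SE, n = 6 and 6; 95% CI 0.35 to 1.11; limma adjusted p = 0.0221). Without bTBI 5 and 6 it was 0.58 (adjusted p = 0.135), and without bTBI 3, 5 and 6 it was 0.39 (adjusted p = 0.40).

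Col5a1 (ENSMUSG00000026837.15, chr2:27886425-28039514, plus strand) encodes the chain of collagen V that sets the diameter of collagen I fibrils. The sham retinas ran from 0.679 over a median of 1.76 to 3.36 CPM and the bTBI retinas from 2.09 over 4.08 to 9.28 CPM. The highest value was that of bTBI 3, and 4 of 6 bTBI values lay above all sham values. The log2 fold change was 0.99 ± 0.26 (SE; 95% CI 0.43 to 1.55; limma adjusted p = 0.0346), 0.85 without bTBI 5 and 6 (adjusted p = 0.155) and 0.50 without bTBI 3, 5 and 6 (adjusted p = 0.429). Both genes thus kept a higher mean in the bTBI retinas that remained, at fold changes that did not pass either limit.

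The 6 collagen IV chains, which form trimers of a1 and a2, of a3, a4 and a5, or of a5 and a6, had log2 fold changes with a median of 0.62, and none passed. For Col4a1 the sham values had a lowest of 15.1, a median of 18.6 and a highest of 24.7 CPM, and the bTBI values a lowest of 18.9, a median of 25.9 and a highest of 115 CPM. The high values were those of bTBI 6 (115 CPM) and bTBI 5 (53.1 CPM), and the remaining 4 bTBI retinas had 18.9 to 30.0 CPM. Over all retinas the log2 fold change of Col4a1 was 0.84 ± 0.34 (SE, adjusted p = 0.188), against 0.26 (adjusted p = 0.391) without bTBI 5 and 6 and 0.13 without bTBI 3, 5 and 6. Of marker genes of the vessel wall, where these chains are made, none of 9 endothelial and none of 7 pericyte genes passed 0.05 at 1 week, with median log2 fold changes of 0.038 and 0.15, the latter 0.033 without bTBI 5 and 6. The summed level of the pericyte genes was 152 to 168 CPM in sham and 175 to 199 CPM in bTBI retinas (two-sided exact permutation p adjusted over 22 marker sums = 0.00952, n = 6 and 6). That of the endothelial genes was 399 to 487 CPM in sham and 455 to 635 CPM in bTBI retinas (same test, adjusted p = 0.0748). At 5 weeks the endothelial sum was 270 to 301 CPM in sham and 298 to 327 CPM in bTBI retinas (same test, adjusted p = 0.0159). The pericyte sum at 5 weeks had an adjusted p of 0.381 in that test. The part of these sums in the collagen IV values was not tested.

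Its partner Col4a2 ran from 20.1 over 22.2 to 24.9 CPM in sham and from 19.7 over 27.0 to 58.3 CPM in bTBI retinas, again highest in bTBI 6 and 5. Its log2 fold change was 0.40 (adjusted p = 0.354), 0.04 without these retinas and -0.07 without bTBI 3 as well. Per kilobase, the ratio of Col4a1 to Col4a2 was 0.610 to 0.882 in sham retinas (median 0.740), 1.13 in bTBI 5, 1.76 in bTBI 6 and 0.788 to 0.949 in the other bTBI retinas. The difference of the log2 ratio was 0.45 (two-sided exact permutation p = 0.00866, 0.0866 after adjustment over the 10 chain ratios tested, n = 6 and 6), and without bTBI 5 and 6 the exact permutation p was 0.0381. The other 9 ratios, of Col4a3 to Col4a4, Col4a5 to Col4a6, Col1a1 to Col1a2 and Col6a1 to Col6a2 at both timepoints and of Col4a1 to Col4a2 at 5 weeks, had adjusted exact permutation p-values of at least 0.390.

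Col4a5 and Col4a6, the X-linked chains that meet in a trimer of smooth muscle, were also highest in bTBI 6 and 5. Col4a5 ran from 3.97 over 5.51 to 13.6 CPM in sham and from 6.48 over 12.9 to 28.4 CPM in bTBI retinas. In Col4a5 the log2 fold change was 1.02 ± 0.30 (SE, adjusted p = 0.0553), with 3 of 6 bTBI values above all sham values, and was 0.64 (adjusted p = 0.236) without bTBI 5 and 6 and 0.46 without bTBI 3, 5 and 6. In both genes sham 4 stood above the other sham retinas, at 13.6 CPM for Col4a5 and 11.9 CPM for Col4a6. Col4a6 ran from 1.63 over 2.90 to 11.9 CPM in sham and from 2.16 over 10.7 to 18.5 CPM in bTBI retinas, a log2 fold change of 1.22 ± 0.43 (SE, adjusted p = 0.125) that was 0.77 without bTBI 5 and 6 and 0.50 without bTBI 3, 5 and 6.

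Col4a3 and Col4a4, chains of a trimer known from the glomerulus and the inner limiting membrane, did not share that pattern. Col4a3 ran from 42.2 over 43.3 to 57.5 CPM in sham and from 34.7 over 39.7 to 52.6 CPM in bTBI retinas (log2 fold change -0.10, adjusted p = 0.702, and -0.25 without bTBI 5 and 6, adjusted p = 0.150). Col4a4 had a median of 28.2 CPM and a highest of 34.5 CPM in sham retinas and lay between 26.0 and 30.5 CPM in bTBI retinas, with a log2 fold change that rounds to 0.00 (SE 0.0744). The bTBI values of Col4a4 were all inside the sham range.

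**Figure D2:**
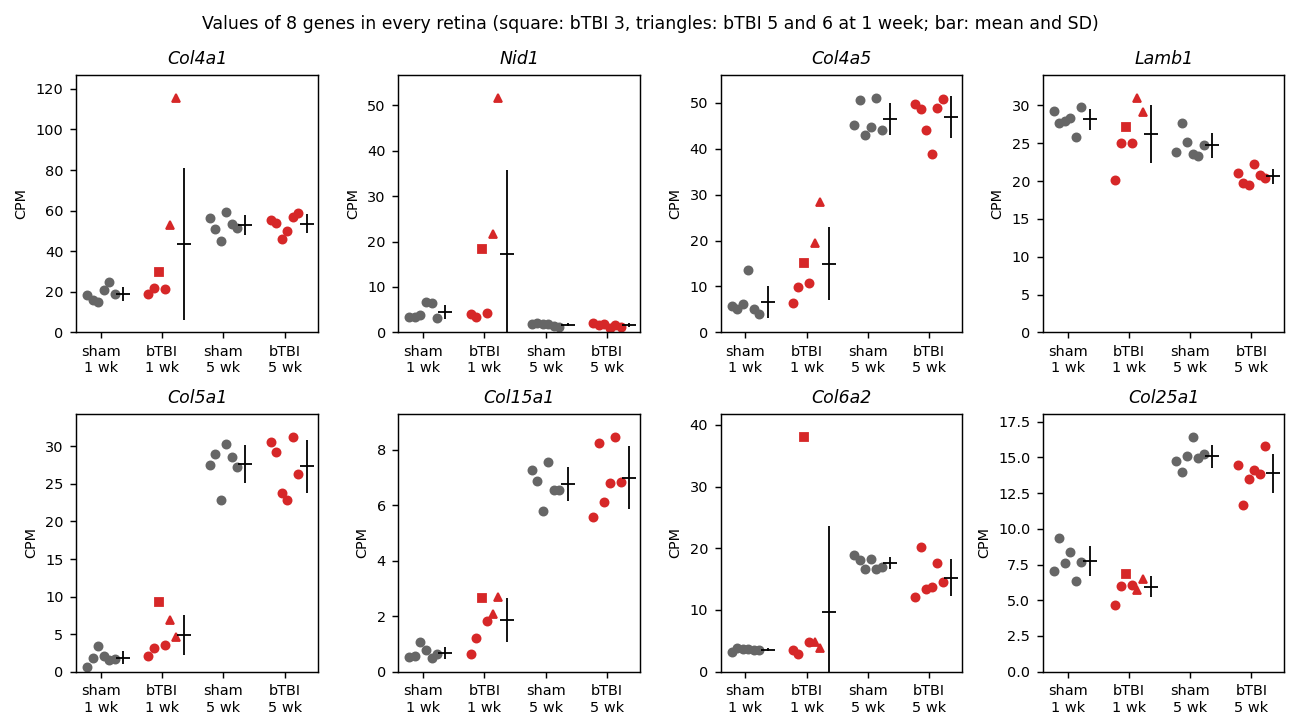
CPM (y axis, linear) of 8 genes in every retina of the 4 groups (x axis, 6 retinas each; sham grey, bTBI red), with the mean and SD beside each group, the lower SD bar being cut at 0 where it would pass it. At 1 week Col4a1 reached 115 CPM in bTBI 6 and Nid1 51.6 CPM (triangles: bTBI 5 and 6), while Col6a2 reached 38.0 CPM in bTBI 3 (square), and at 5 weeks the 6 bTBI values of Lamb1 lay below the 6 sham values.

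Nid1, one of the nidogens that link laminin to collagen IV, followed the same retinas. It ran from 3.15 over 3.67 to 6.68 CPM in sham retinas, and in the bTBI retinas it was 51.6 CPM in bTBI 6, 21.6 CPM in bTBI 5, 18.3 CPM in bTBI 3 and 3.44 to 4.31 CPM in the others. The 3 high retinas lay above all sham values and the other 3 among them. That gave a log2 fold change of 1.15 ± 0.50 (SE, adjusted p = 0.241), then 0.38 without bTBI 5 and 6 and -0.11 without bTBI 3, 5 and 6. Nid2 did not show these differences between retinas, at 15.9 to 25.8 CPM in sham and 16.5 to 21.5 CPM in bTBI retinas (log2 fold change 0.06, SE 0.12).

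The proteoglycan cores behaved alike at smaller size. Hspg2 ran from 5.36 over 8.07 to 9.75 CPM in sham and from 5.37 over 10.5 to 23.7 CPM in bTBI retinas, with bTBI 6 and 5 highest. Its log2 fold change was 0.50 (adjusted p = 0.418), 0.05 without those retinas and -0.18 without bTBI 3 as well. Agrn, the core of agrin, lay at 35.4 to 45.1 CPM in sham and 39.4 to 57.3 CPM in bTBI retinas (log2 fold change 0.19, adjusted p = 0.317, and 0.07 without bTBI 5 and 6).

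The 5 laminin alpha chains had a median log2 fold change of 0.16 and none passed. Lama5, the alpha chain of vascular and epithelial laminins, ran from 8.59 over 10.9 to 13.4 CPM in sham and from 12.0 over 14.5 to 19.1 CPM in bTBI retinas, 4 of 6 bTBI values being above all sham values. Its log2 fold change was 0.42 ± 0.13 (SE, adjusted p = 0.0667), 0.27 without bTBI 5 and 6 (adjusted p = 0.305) and 0.21 without bTBI 3, 5 and 6 (adjusted p = 0.610). Lama2, the alpha chain of muscle laminin, reached 7.39 CPM in bTBI 6 and 5.13 CPM in bTBI 5 against at most 4.08 CPM in sham retinas, with a log2 fold change of 0.49 (SE 0.26) and of 0.16 without these retinas. Lama4, a chain of vessel walls, was highest in bTBI 3 (7.94 CPM) against 2.89 to 4.51 CPM in sham retinas, and its log2 fold change was 0.16, 0.12 without bTBI 5 and 6 and -0.17 without bTBI 3, 5 and 6.

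Of the beta and gamma chains, Lamb2, the beta chain of the inner limiting membrane and of the photoreceptor matrix, ran from 19.6 over 28.2 to 35.4 CPM in sham and from 24.2 over 35.8 to 42.5 CPM in bTBI retinas. Lamc1, the gamma chain of most laminins, ran from 17.0 over 26.4 to 30.0 CPM and from 22.5 over 33.8 to 39.9 CPM. In both genes bTBI 3, 5 and 6 lay above all sham retinas and bTBI 1 and 2 did not, while bTBI 4 did for Lamc1 alone, with log2 fold changes of 0.26 for Lamb2 (adjusted p = 0.428) and 0.29 for Lamc1 (adjusted p = 0.363) that came to -0.03 and 0.03 without these 3 retinas. Lamb1, the beta chain of many embryonic and vascular laminins, ran the other way, at 25.8 to 29.8 CPM in sham and 20.2 to 31.0 CPM in bTBI retinas, a log2 fold change of -0.11 (SE 0.084, adjusted p = 0.584) that was -0.21 without bTBI 5 and 6 (adjusted p = 0.197) and -0.26 without bTBI 3, 5 and 6 (adjusted p = 0.166).

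The fibrillar collagens and collagen VI differed most in bTBI 3, the retina with the high value of Mbp. Col3a1 was 70.6 CPM in bTBI 3, against 0.786 to 5.44 CPM in the other bTBI retinas and 1.36 to 2.36 CPM in sham retinas. Col1a1 was 35.3 CPM there, 0.518 to 4.99 CPM in the other bTBI retinas and 0.204 to 2.30 CPM in sham retinas. Collagens I and III are the chief fibrils of sclera and meninges, and myelin, of which Mbp is a main protein, begins in the optic nerve behind the eye in mice.

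Col1a2, the partner of Col1a1 in collagen I, was 50.2 CPM in bTBI 3, 2.23 to 18.1 CPM in the other bTBI retinas and 1.90 to 14.4 CPM in sham retinas, where 14.4 CPM was the value of sham 4. Its log2 fold change was 1.19 ± 0.53 (SE, adjusted p = 0.254) with all retinas, 0.95 without bTBI 5 and 6 and 0.23 without bTBI 3, 5 and 6. The log2 fold changes of Col3a1 (0.99, SE 0.66, adjusted p = 0.511) and Col1a1 (0.91, SE 0.60, adjusted p = 0.501) were 0.90 and 0.85 without bTBI 5 and 6 and -0.38 and -0.23 without the 3 retinas. The sum of the 7 fibroblast markers stood at 232 CPM in bTBI 3 and 202 CPM in sham 4, and its part in these values was not tested.

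Collagen VI, a beaded filament network near basement membranes, was measured by Col6a1 and Col6a2 at 1 week. Col6a2 was 38.0 CPM in bTBI 3, 2.92 to 4.88 CPM in the other bTBI retinas and 3.12 to 3.91 CPM in sham retinas. Col6a1 was 28.8 CPM in bTBI 3, 2.88 to 5.04 CPM in the other bTBI retinas and 1.62 to 3.78 CPM in sham retinas. The log2 fold changes of 0.61 for Col6a2 (adjusted p = 0.516) and 0.72 for Col6a1 (adjusted p = 0.373) were 0.81 and 0.88 without bTBI 5 and 6 and 0.05 and 0.19 without bTBI 3, 5 and 6, so that the difference between the groups lay mainly in a single retina.

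The most abundant collagens at 1 week had smaller fold changes, and most of these also moved when bTBI 5 and 6 were left out. Col2a1, the main fibril of the vitreous, lay at 21.8 to 31.5 CPM in sham and 29.1 to 35.7 CPM in bTBI retinas (log2 fold change 0.27, SE 0.087, adjusted p = 0.0865), and its log2 fold change was 0.20 without bTBI 5 and 6 and 0.21 without bTBI 3, 5 and 6. Col8a2 ran from 203 over 269 to 364 CPM in sham and from 162 over 229 to 276 CPM in bTBI retinas, lowest in bTBI 5 and 6. Its log2 fold change was -0.30 (SE 0.14, adjusted p = 0.294) with all retinas and -0.11 without these 2, which had been the highest retinas for Col4a1.

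Col18a1 was highest in bTBI 6 (167 CPM) and in sham 4 (151 CPM), with 66.8 to 84.5 CPM in the other sham retinas and its log2 fold change was 0.40 (SE 0.19, adjusted p = 0.299) and 0.18 without bTBI 5 and 6. Col9a3, one of the chains of collagen IX on vitreous fibrils, lay at 49.0 to 84.7 CPM in sham and 48.5 to 75.5 CPM in bTBI retinas (log2 fold change -0.03, and 0.11 without bTBI 5 and 6). For Col23a1 the log2 fold change came to 0.27 (SE 0.11, adjusted p = 0.199) and to 0.14 without bTBI 5 and 6, and for the lowly measured Col26a1 to -0.06 and -0.14.

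The genes with a lower mean in bTBI retinas were few. Col25a1 (chr3:130131501-130599877, plus strand), a transmembrane collagen of neurons whose ectodomain binds amyloid, ran from 6.36 over 7.64 to 9.35 CPM in sham and from 4.65 over 6.06 to 6.84 CPM in bTBI retinas. The values of 4 bTBI retinas lay below all sham values. The log2 fold change was -0.33 ± 0.10 (SE, adjusted p = 0.0664), -0.34 without bTBI 5 and 6 and -0.41 without bTBI 3, 5 and 6, so that its direction was the same without the retinas high in markers of other tissue. The summed level of 8 retinal ganglion cell markers was also lower in bTBI retinas, 571 to 985 CPM against 1051 to 1315 CPM in sham (two-sided exact permutation p adjusted over 22 marker sums = 0.00952, n = 6 and 6), and its part in the value of Col25a1 was not tested. Col19a1, a FACIT collagen of neurons and muscle, had 2.24 to 5.29 CPM in sham and 1.74 to 4.36 CPM in bTBI retinas (log2 fold change -0.23, adjusted p = 0.626), a fold change that was -0.47 without bTBI 5 and 6 (adjusted p = 0.219) and -0.39 without bTBI 3, 5 and 6 (adjusted p = 0.491).

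**Figure D3:**
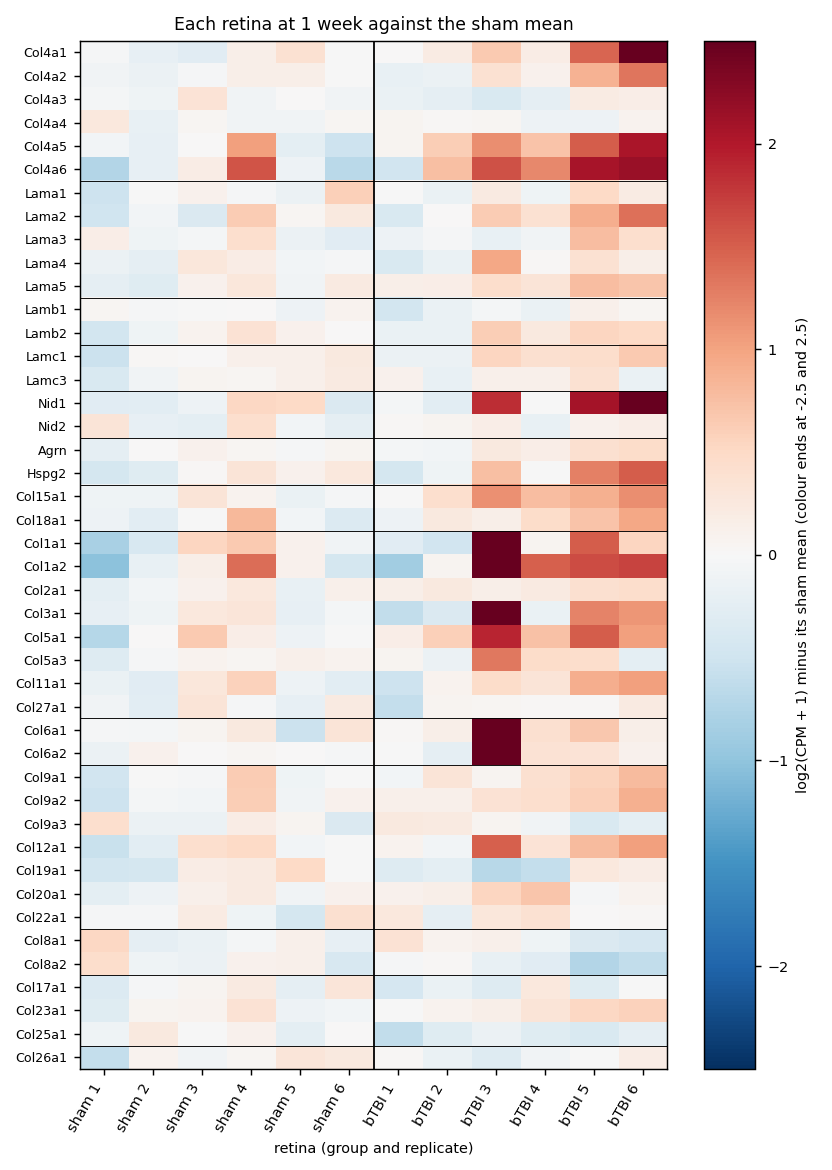
Log2(CPM + 1) minus the mean of the 6 sham retinas (colour, red above and blue below, saturating at both ends of the scale) for the 44 genes at 1 week (rows, divided by class) in each of the 12 retinas (columns). Red fills much of bTBI 3, 5 and 6, with collagen VI and collagens I and III darkest in bTBI 3 and Col4a1 and Nid1 darkest in bTBI 6, while bTBI 1 and 2 held no gene at 2 or more times its sham mean.

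Counted over retinas, 16 of the 44 genes had their highest value of all 12 retinas in bTBI 6, 10 in bTBI 3 and 4 in bTBI 5, while 19 had their lowest in sham 1. How often each retina was highest or lowest over all genes was not counted, so these counts cannot be read as particular to the group. A value at least 2 times the sham mean was found for 13 genes in bTBI 3, 14 in bTBI 5, 13 in bTBI 6, 3 in bTBI 4 and 0 in bTBI 1 and 2. Over all genes the shares at that limit were 2.72% in bTBI 3, 2.34% in bTBI 5 and 2.35% in bTBI 6, and they were not counted for bTBI 1, 2 and 4. The median sham level at 1 week was 5.15 CPM in the group and 21.7 CPM over all genes. Ratios vary more at low levels and the shares were not matched for level, so they do not show a trait particular to the group. Of the genes of the group, 8 passed it in bTBI 3, 5 and 6: Col1a2, Col3a1, Col4a5, Col4a6, Col5a1, Col12a1, Col15a1 and Nid1. Another 5 passed it in bTBI 3 and not in both of bTBI 5 and 6, Col1a1, Col5a3, Col6a1, Col6a2 and Lama4, and 4 passed it in bTBI 5 and 6 but not in bTBI 3, Col4a1, Col11a1, Hspg2 and Lama2. The set of 5 holds both collagen VI chains, and the set of 4 holds the chain Col4a1 and perlecan.

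Without bTBI 5 and 6, none of the 44 genes passed 0.005 or 0.05, against 0.751% and 3.34% of all genes. The unadjusted p was under 0.05 in 9 genes, 5 of them higher in bTBI, and in 15.3% of all genes. The median log2 fold change of the 44 was 0.15, with 34 above 0, 5 genes changed sign and 30 came closer to 0. Without bTBI 3, 5 and 6, none passed either limit, against 0.0536% and 1.67% of all genes, in a fit with 3 bTBI retinas. The median was then 0.011, with 24 of 44 genes (54.5%) above 0 and 13 with the other sign. The unadjusted p was under 0.05 in 5 genes, 1 of them higher in bTBI, and in 11.8% of all genes. The shares of all genes that changed sign or came closer to 0 in these fits were not counted.

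By class, the median log2 fold change of the 6 collagen IV chains went from 0.62 to 0.15 without bTBI 5 and 6 and to 0.062 without bTBI 3, 5 and 6. That of the 8 fibrillar collagens went from 0.65 to 0.64 and then to 0.047, and that of the collagen VI pair from 0.67 to 0.85 and then to 0.12. The 9 laminin chains went from 0.16 to 0.12 and then to -0.033, and the nidogens from 0.61 to 0.20 and then to -0.071. In this order of omission, collagen IV and the nidogens moved most without bTBI 5 and 6, and the fibrillar collagens and collagen VI once bTBI 3 was also left out. These retinas held the highest value of many genes of the group, so leaving them all out was bound to lower such medians. The drops therefore describe the values and are no test. The fibrillar class was not high in bTBI 3 alone. Its median of log2(CPM + 1) minus the sham mean was 1.62 in bTBI 3, 1.07 in bTBI 5 and 0.78 in bTBI 6. Of the nidogens, Nid2 went only from 0.06 to 0.02 without bTBI 5 and 6.

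**Figure D4:**
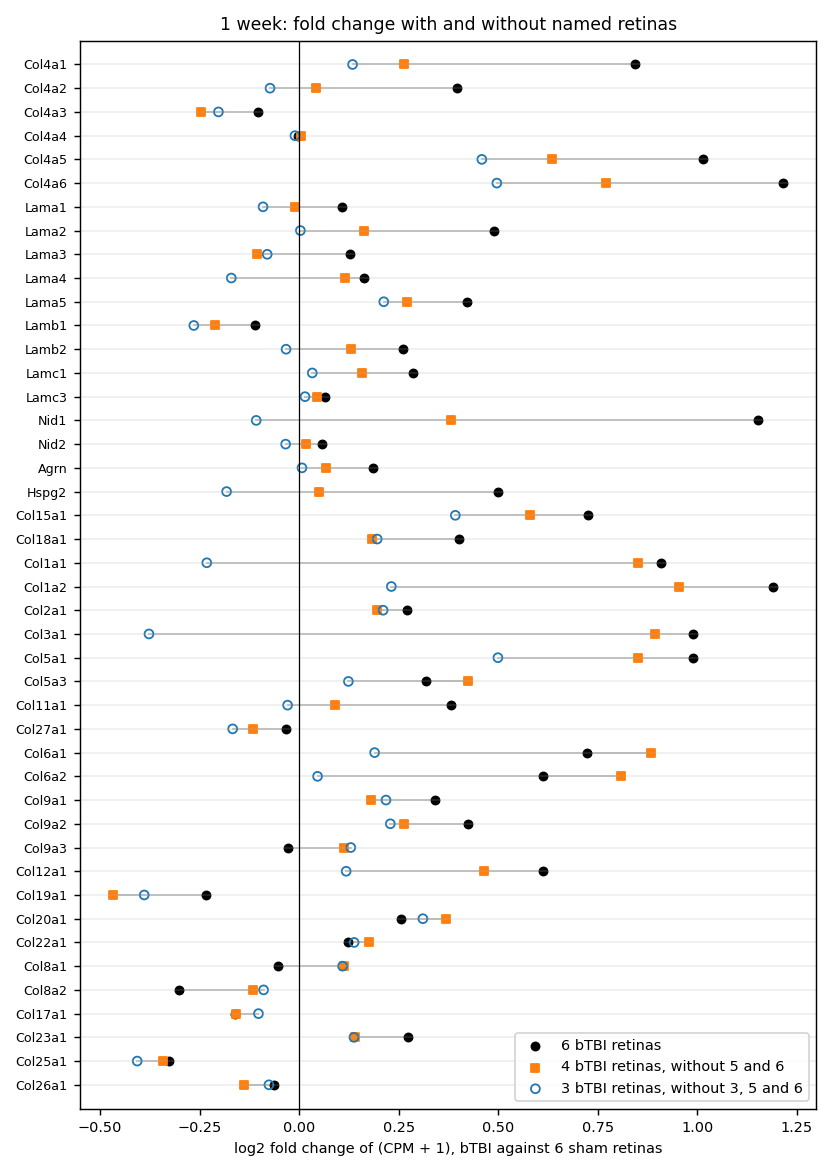
Log2 fold change of CPM + 1 at 1 week (x axis, bTBI against 6 sham retinas) for the 44 genes (y axis) with 6 bTBI retinas (black), without bTBI 5 and 6 (orange squares) and without bTBI 3, 5 and 6 (open blue circles). The median went from 0.28 to 0.15 and to 0.011; Nid1 went from 1.15 to 0.38 and to -0.11, while Col25a1 stayed between -0.33 and -0.41.

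At 5 weeks the group differed little between bTBI and sham. None of the 52 genes passed 0.005, against 133 of 15920 genes (0.835%), of which 131 were lower in bTBI. At 0.05 a single gene of the group passed, Lamb1, against 2.05% of all genes. The median log2 fold change was -0.017, with 24 of 52 above 0 (50.6% of all genes were), and an unadjusted p under 0.05 was found in 4 genes, 1 higher and 3 lower, and in 10.9% of all genes. The median standard error was 0.0798, and the 95% interval lay within -0.5 and 0.5 for 51 of the 52 genes and within -1 and 1 for all 52.

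Lamb1 (ENSMUSG00000002900.16, chr12:31265234-31329644, plus strand) had 23.4 to 27.7 CPM in the sham retinas at 5 weeks, with a median of 24.2, and 19.5 to 22.3 CPM in the bTBI retinas, with a median of 20.6. All 6 bTBI values lay below all 6 sham values, as was the case for 1.75% of all genes, while no gene of the group had all 6 above, against 0.239% of all genes. The log2 fold change was -0.25 ± 0.054 (SE; 95% CI -0.36 to -0.14; limma adjusted p = 0.0127), and its adjusted p stayed between 0.00708 and 0.0463 when each retina was left out in turn. Lamb2, which takes the place of Lamb1 in some mature basement membranes, had 20.8 to 24.9 CPM in sham and 23.0 to 27.8 CPM in bTBI retinas, 5 of 6 bTBI values being above all sham values (log2 fold change 0.12, SE 0.055, adjusted p = 0.416). At 5 weeks Lamc1, their common partner, had a log2 fold change of 0.06 (SE 0.050) and Lama5 one of -0.03 (SE 0.062). The ganglion cell marker sum was 319 to 509 CPM in bTBI and 616 to 678 CPM in sham retinas at 5 weeks (exact permutation p adjusted over 22 sums = 0.00952, n = 6 and 6), and its part in the value of Lamb1 was not tested.

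The genes that stood out at 1 week lay close to 0 at 5 weeks. Col15a1 ran from 5.78 over 6.71 to 7.57 CPM in sham and from 5.56 over 6.82 to 8.45 CPM in bTBI retinas, and Col5a1 from 22.9 over 28.1 to 30.4 CPM and from 22.8 over 27.7 to 31.2 CPM. Their log2 fold changes were 0.03 (SE 0.094) and -0.02 (SE 0.076). Those of Col4a1 (0.02, SE 0.062), Col4a5 (0.01, SE 0.061) and Nid1 (-0.06, SE 0.12) were as small, and the sham and bTBI ranges of these 5 genes overlapped.

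The remaining larger values at 5 weeks were those of Col6a2, Col6a6, Col5a2, Col17a1 and Hspg2. Col6a2 had 16.7 to 18.8 CPM in sham and 12.1 to 20.2 CPM in bTBI retinas, 4 of them below all sham values (log2 fold change -0.21, adjusted p = 0.360). Col6a6 stood at a log2 fold change of -0.20 (SE 0.14), while its partner Col6a1, the highest of the class, had one of -0.04 and Col6a4 one of -0.03. Col5a2 stood at 0.19 (SE 0.20) through a single high value of 9.28 CPM in bTBI 5 against 2.18 to 4.31 CPM in the other retinas. Col17a1, the transmembrane collagen of hemidesmosomes, had one of 0.17 (adjusted p = 0.489), Hspg2 one of 0.16 (adjusted p = 0.618) and Agrn one of -0.12 (adjusted p = 0.421).

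Of the genes measured only at 5 weeks, Col7a1, the collagen of anchoring fibrils, was at 73.6 to 94.4 CPM in sham and 74.3 to 94.0 CPM in bTBI retinas. Col11a2, a fibrillar chain, was at 54.1 to 65.9 CPM and 50.9 to 66.0 CPM. The log2 fold changes of Col11a2, Col13a1, Col16a1, Col24a1 and Lamb3 lay between -0.13 and 0.06, with 0.716 as the smallest adjusted p.

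The difference between the bTBI effects at the 2 timepoints was tested in all 24 retinas over 14455 genes. None of the 43 genes passed 0.005 or 0.05, against 0.104% and 0.768% of all genes, while an unadjusted p under 0.05 was found in 13 of the 43, all with the larger effect at 1 week, and in 8.5% of all genes. The differences of the log2 fold change, 1 week minus 5 weeks, were 1.01 ± 0.29 (SE) for Col5a1 (limma adjusted p = 0.116), 0.69 ± 0.21 for Col15a1 (adjusted p = 0.141) and 1.01 ± 0.32 for Col4a5 (adjusted p = 0.194). That of Lamb1 was 0.14 ± 0.099 (95% CI -0.066 to 0.34, adjusted p = 0.802), so that its value at 5 weeks was not shown to differ from that at 1 week. Without bTBI 5 and 6 at 1 week the smallest adjusted p of the group was 0.206, no gene of the group passed either limit, against 0.0692% and 0.304% of all genes, and the median difference was 0.13 against 0.30 with all retinas. Without bTBI 3, 5 and 6 no gene of the group passed either limit, against 0.0415% and 0.208% of all genes, and the median difference was 0.074.

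The levels in sham retinas differed far more between the timepoints than bTBI and sham did. A sham mean at least 4 times higher at 5 weeks than at 1 week was found in 15 of the 43 genes in both tables, against 3.23% of all genes, and one at least 4 times lower in none, against 0.0623%. The median ratio of the sham means, 5 weeks to 1 week, was 2.25 for the 43 genes and 1.04 over all genes, and 31 of the 43 lay above 1 (53.8% of all genes did). The sham ranges did not overlap in 28 genes of the group that were higher at 5 weeks and in 4 that were lower. The share of all genes without overlap was not counted, so these counts cannot be read as particular to the group. The tables were normalized separately and the kits differed, so these ratios are a description and have no test.

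Col27a1, a fibrillar collagen of cartilage, had the largest ratio, with 0.850 to 1.78 CPM in the 1 week sham retinas and 57.3 to 71.6 CPM in the 5 week ones, 53.7 times the mean. Col6a1 had 1.62 to 3.78 CPM at 1 week and 123 to 149 CPM at 5 weeks, 48.4 times. The mean of Col20a1 went from 1.89 to 51.9 CPM, that of Col11a1 from 1.32 to 25.5 CPM, that of Col5a1 from 1.86 to 27.6 CPM and that of Col15a1 from 0.677 to 6.76 CPM. Among the basement membrane genes Agrn had 35.4 to 45.1 CPM and 185 to 232 CPM, and Col4a5 had 3.97 to 13.6 CPM and 43.1 to 51.1 CPM. Col5a1 and Col15a1, the genes with the smallest adjusted p at 1 week, were therefore measured at much lower values at 1 week than at 5 weeks in sham retinas and in bTBI retinas alike.

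The lower ones were Nid1, with a mean of 4.51 CPM at 1 week and 1.67 CPM at 5 weeks (0.371 times), Col8a2 (0.530 times), Col1a2 (0.548 times), Lama2 (0.566 times) and Nid2 (0.574 times). Lamb1 was near even at 0.877 times. Some long noncoding RNAs kept in the nucleus, looked at after these ratios were seen, were also higher at 5 weeks: the sham mean of Meg3 went from 28.6 to 1150 CPM, that of Neat1 from 2.22 to 45.3 CPM and that of Malat1 from 64.2 to 457 CPM, while Gapdh, a gene of glycolysis, was at 4666 and 2995 CPM. Their part in the ratios of the collagens was not tested.

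**Figure D5:**
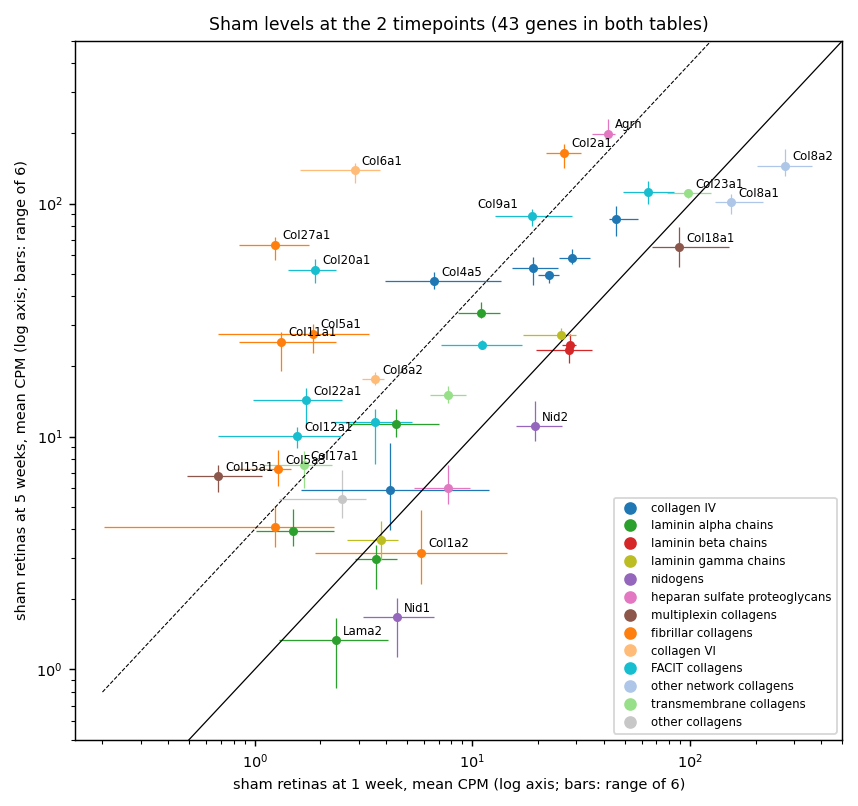
Mean CPM of the 43 genes in both tables in the sham retinas at 1 week (x axis, log scale) and 5 weeks (y axis, log scale), with the range of the 6 retinas as bars, coloured by class; the solid line marks equal values and the dashed line a value 4 times higher at 5 weeks. On or above the dashed line lie 15 genes, led by Col27a1 (1.24 and 66.5 CPM) and Col6a1 (2.88 and 139 CPM), and Col8a2 and Nid1 lie below the solid line.

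Other genes of the matrix, from lists of receptors, matrix proteins, proteases and collagen-processing enzymes, were read against the 2.25% of all genes called at 1 week, 189 higher and 147 lower in bTBI. Of 10 matrix receptors measured, 2 rose: Cd44, the hyaluronan receptor of reactive glia and leukocytes (log2 fold change 0.96, limma adjusted p = 0.000409), and Ddr1, a collagen receptor kinase (0.33, adjusted p = 0.00315). Of 20 other basement membrane proteins 2 rose: Sparc, a collagen-binding matricellular protein (0.62, adjusted p = 0.00115), and Lad1, ladinin of the anchoring filament (1.45, adjusted p = 0.00315). Of 21 matrix proteases and inhibitors, 3 rose and 1 fell: Mmp12, the elastase of macrophages (2.31, adjusted p = 3.58e-06), Ctss, cathepsin S of microglia (1.57, adjusted p = 0.000334), and Adamts1, which cleaves proteoglycans (0.65, adjusted p = 0.000954), rose, and Mmp9, a gelatinase that degrades collagen IV, fell (-0.53, adjusted p = 0.000925).

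None of the 19 genes of collagen modification and secretion passed, the closest being the lysyl hydroxylase Plod1 (0.30, adjusted p = 0.0173), and none of the 11 genes of collagen processing and crosslinking, the closest being the procollagen C-proteinase Bmp1 (0.67, adjusted p = 0.0054). None of 16 genes of TGF-beta signaling passed, the closest being the receptor Tgfbr1 (0.31, adjusted p = 0.00783). The median log2 fold change was 0.18 over the receptors, 0.22 over the other basement membrane proteins, 0.14 over the proteases and inhibitors, 0.091 over the modification genes, 0.29 over the processing genes and 0.28 over the TGF-beta genes, against -0.000235 over all genes. Without bTBI 3, 5 and 6 these medians were 0.11, 0.0071, 0.069, 0.092, 0.16 and 0.15 in the same order, with 10 of the 20 other basement membrane proteins above 0.

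Without bTBI 5 and 6, Cd44 (adjusted p = 0.00404), Mmp12 (adjusted p = 3.63e-05) and Ctss (adjusted p = 0.00266) still passed, while Sparc (log2 fold change 0.60, adjusted p = 0.0110), Adamts1 (0.57, adjusted p = 0.00771), Mmp9 (-0.44, adjusted p = 0.00680), Ddr1 (0.32, adjusted p = 0.0229) and Lad1 (1.37, adjusted p = 0.0185) did not, at fold changes close to those with all retinas. Lad1 and Ddr1 also missed the limit in 10 of the 12 fits that left out a single retina, all except those without sham 4 or bTBI 2. The summed level of 7 microglial markers was 104 to 157 CPM in sham and 160 to 348 CPM in bTBI retinas (exact permutation p adjusted over 22 sums = 0.00952, n = 6 and 6), and its part in Mmp12, Ctss and Cd44 was not tested.

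At 5 weeks Lad1 rose (log2 fold change 0.55, limma adjusted p = 0.00330) among 18 other basement membrane proteins measured, and Mmp9 fell (-0.34, adjusted p = 0.00301) among 20 proteases and inhibitors, against 0.835% of all genes called, 2 higher and 131 lower. Both missed the limit when most single retinas were left out, with adjusted p-values up to 0.0119 for Lad1 and 0.0106 for Mmp9. None of the 12 receptors passed, Cd44 being closest (0.37, adjusted p = 0.0167), nor any of the 20 modification, 11 processing and 15 TGF-beta genes, where Mia3 (0.06, adjusted p = 0.509), Adamts3 (0.09, adjusted p = 0.657) and Tgfb2 (0.09, adjusted p = 0.463) had the smallest p.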

How the data were processed

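The retinas were sequenced after polyA selection as stranded paired-end libraries. For each retina the authors aligned reads to GRCm38 (mm10) by STAR, ran featureCounts per gene and tested by edgeR at an FDR under 0.005; the strand setting of the counting is not given in the sources used here. As deposited, each table holds a signal, counts that the authors scaled like CPM with an effective library size per retina, after removal of genes of low counts. No raw counts were used here. Values were whole multiples of a step within 0.01 in each retina, and depth was taken as the sum over the step; the files give no total to check it with. Symbols were matched to gene IDs for 14907 of 14922 genes and 15902 of 15920 genes.

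The values as log2(CPM + 1) were compared with limma 3.58.1 (R 4.3.3, statmod 1.5.0; trend=TRUE, robust=FALSE) by the Benjamini-Hochberg method over every gene tabled, at 0.005. The difference between timepoints was fitted on all 24 retinas. Sums of markers and ratios of chains were compared with two-sided exact permutation tests (scipy 1.17.1), whose smallest possible p is 0.00216 for 6 against 6. Each retina is a separate mouse. The test was tested on simulated data. Promoter windows are from RefSeq (GRCm38.p6) and gene positions from the GENCODE annotation of GRCm38.

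The members, the gene lists and the tests were chosen with earlier results of these data known. A rule named genes with an adjusted p under 0.05 or without overlap of the groups, and the highest of each class. It also took the 3 largest fold changes in each direction with a mean of at least 1 CPM, genes in only 1 table and partner chains. Of the other lists it took called genes and that with the smallest p. Genes outside the rule, among them Col4a1, Col4a2, Lama2, Lama4, Col20a1 and Col27a1, were described with their values already known. The omission of bTBI 5 and 6 and that of bTBI 3, 5 and 6 were alternatives, the latter chosen after seeing the data. The others were a pseudocount of 0.1, a minimum of 1 CPM in 6 of 12 retinas, scaling by median of ratios or by totals, a replicate block, the omission of each retina in turn and a threshold of 0.05. Some genes are not reported here.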

Additional observations from a re-analysis of the deposited data

Results flagged for a closer look

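Among groups of 6 retinas, a value was set apart when its gap to the nearest other value took more of the range of the group than Dixon's 95% critical value allows. This held for 26 of the 192 groups of the collagen, laminin and partner genes (13.5%), with 16 at 1 week and 10 at 5 weeks. The critical value allows about 1 in 20 for independent, normally distributed values. The values here were untransformed CPM, and the genes shared the same retinas. The share over all genes was not counted, so no excess can be read from the 13.5%.

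At 1 week 6 of these values belonged to bTBI 3, the retina with the high value of Mbp: Col3a1 at 70.6 CPM (others up to 5.44), Col1a2 at 50.2 CPM (others up to 18.1), Col6a2 at 38.0 CPM (others up to 4.88), Col1a1 at 35.3 CPM (others up to 4.99), Col6a1 at 28.8 CPM (others up to 5.04) and Col5a3 at 4.70 CPM (others up to 2.13). Another 5 belonged to sham 4: Col18a1 at 151 CPM (others up to 84.5), Col9a1 at 28.6 CPM (others up to 18.1), Col1a2 at 14.4 CPM (others up to 5.51), Col4a5 at 13.6 CPM (others up to 6.25) and Col4a6 at 11.9 CPM (others up to 3.98). That sham retina also had the highest fibroblast marker sum among the sham retinas, 202 CPM, and its part in these values was not tested. Col4a1 was 115 CPM in bTBI 6 (others up to 53.1), and Col4a3 was 57.5 CPM in sham 3 (others up to 45.5). Values below the rest of their group were those of Lamc1 in sham 1 (17.0 CPM, others from 25.3), Col5a3 in sham 1 (0.815 CPM, others from 1.23) and Col27a1 in bTBI 1 (0.458 CPM, others from 1.26).

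At 5 weeks sham 3 was low in Col4a2 (45.6 CPM, others from 49.2), Col11a1 (19.2 CPM, others from 25.6) and Col19a1 (7.65 CPM, others from 11.3), and bTBI 4 was low in Col19a1 (6.81 CPM, others from 12.8). High values were those of Lama5 in bTBI 1 (40.5 CPM, others up to 33.5), Lama4 in bTBI 1 (3.71 CPM, others up to 2.71), Col4a6 in sham 2 (9.40 CPM, others up to 5.70), Col5a2 in bTBI 5 (9.28 CPM, others up to 3.03), Lama3 in sham 6 (4.91 CPM, others up to 3.94) and Lamb3 in sham 4 (3.03 CPM, others up to 1.73).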

How the results depend on the processing

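The count of genes of the group past the limit, 0 at 1 week, 0 at 5 weeks and 0 for the difference, stayed at 0 under both other scalings, a pseudocount of 0.1, the minimum of 1 CPM and the omission of bTBI 5 and 6 or of bTBI 3, 5 and 6. At a threshold of 0.05 it was 2 at 1 week, 1 at 5 weeks and 0 for the difference. Leaving out a single retina gave 0 to 1 at 1 week, where Col15a1 passed without bTBI 1 (adjusted p = 0.00232), and 0 at 5 weeks and for the difference. At 0.05 these omissions gave 0 to 8 genes at 1 week, 8 without sham 4, 6 without bTBI 1, 4 without bTBI 2, 1 without sham 1, 5 or 6 and 0 without sham 2 or bTBI 3, 5 or 6, always 1 (Lamb1) at 5 weeks, and 0 to 3 for the difference. The count of all genes at 0.005 was 189 to 486 (1 week), 88 to 163 (5 weeks) and 9 to 111 (difference) over the omissions, against 336, 133 and 15, and was 112 at 1 week without bTBI 5 and 6 and 8 without bTBI 3, 5 and 6. For single genes, 3051 of 3053 alternative values stayed on the same side of the limit, and 141 had the other sign, 1 of them among 695 from other processing settings. No scaling moved the median of all genes by more than 0.006.

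The sources used here do not say that replicate numbers pair the retinas. Deviations of same-numbered retinas correlated at -0.253 to 0.542 (1 week) and at -0.113 to 0.152 (5 weeks). The 0.542 was that of replicate 1 at 1 week, where sham 1 correlated best with bTBI 1. Such correlations cannot exclude a pairing. With the number as a replicate block, 1 gene passed at 1 week, Col5a1 (adjusted p = 0.00181), 0 at 5 weeks and 0 for the difference; all genes gave 293, 134 and 14.

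The planned edgeR test was not run: the values are whole multiples of a step, but the smallest value was 1 step in only 4 of 24 retinas, so that reads would rest on a step inferred from larger multiples with no total to check it. At low values, such as those of Col15a1 at 1 week, depth limits the precision.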
